A study of Mus musculus with 16 samples.

Results

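The genes described here encode receptors through which hormones and nerves act on the heart, with 1 kinase that switches such receptors off. They were chosen by name: every array probe whose gene name was Crhr2, Adrb1, Adra1a, Adra1b, Agtr1a, Ednra, Ednrb, Chrm2 or Grk5 was taken, the last under its older name Gprk5 as well. This gave 18 of 41174 probes and 9 genes, of which 8 were measured well enough to be tested among 12331 genes in all. Hearts of 12 week old strain-matched mice were profiled on 16 two-colour Agilent arrays, each holding 1 heart sample in the red Cy5 channel and, in the green Cy3 channel, a pool of whole C57BL/6 pups taken on postnatal day 1. The first group lacked both copies of MuRF1 and both of MuRF2 (MuRF1 -/- MuRF2 -/-, called double null). The second lacked MuRF1 and kept 1 copy of MuRF2 (MuRF1 -/- MuRF2 +/-, MuRF1 null MuRF2 het), and the third kept 1 copy of MuRF1 and lacked MuRF2 (MuRF1 +/- MuRF2 -/-, MuRF1 het MuRF2 null). The fourth was wild type (MuRF1 +/+ MuRF2 +/+), and each group had 4 biological replicates. MuRF1 and MuRF2 are muscle ring finger proteins of the sarcomere, and MuRF1 is known as a muscle ubiquitin ligase. The labels give no sex or treatment and do not say how the mutations were made, and the pup pool was used with all 4 groups.

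Most of these proteins are G protein-coupled receptors of the cell surface. The beta adrenergic receptor encoded by Adrb1 answers noradrenaline and adrenaline by raising cyclic AMP through a stimulatory G protein, which quickens and strengthens the beat. The corticotropin-releasing hormone receptor encoded by Crhr2 answers urocortins through the same cyclic AMP arm. The alpha adrenergic receptors encoded by Adra1a and Adra1b, the angiotensin II receptor encoded by Agtr1a and the endothelin receptors encoded by Ednra and Ednrb act mainly through phospholipase C and calcium. The muscarinic receptor encoded by Chrm2 answers acetylcholine from the vagus nerve, lowers cyclic AMP and opens potassium channels of the atria and the sinus node. The kinase encoded by Grk5 phosphorylates activated receptors, after which arrestins bind and signalling through the G protein stops.

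What the arrays measured is set by where each probe lies. The probes that carried the tested values of the receptors that were lower in double null hearts, and both Grk5 probes, are shown by the first 30 of their 60 bases, 5′ to 3′, as the array files give them.
Crhr2 probe A_51_P399653: ttctcttccattcctctgtccctggagcag
Agtr1a probe A_52_P645862: tcctccacatatatgtacatatgtatctct
Adra1b probe A_52_P639048: caatgctggccctttgatagggtcggaaaa
Adrb1 probe A_52_P322181: gttggaaggccattttgcacagtgttaggc
Grk5 probe A_52_P141488: ccccaataacaaacctccaagtttctcaaa
Grk5 probe A_51_P511081: accgaataaattcaaaccacatcaattcaa
The second probes of Agtr1a and Adrb1, which read another stretch of the same genes, are shown whole because their values are set beside those of the first.
Agtr1a probe A_51_P236439: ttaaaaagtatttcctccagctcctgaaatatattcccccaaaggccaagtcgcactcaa
Adrb1 probe A_51_P203827: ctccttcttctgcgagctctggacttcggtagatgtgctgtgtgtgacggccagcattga
The Crhr2 probe lies at chr6:55053469-55053528 on the minus strand in the coordinates of the array files. These name no build, and the exon or untranslated region that each probe falls in was not determined. In the same coordinates the 2 probes start 890 bases apart for Agtr1a, 1973 for Adrb1, 189 for Grk5, 1763 for Ednrb and 60067 for Adra1b. Probes of 1 gene therefore need not read the same transcript ends, and no probe's level was set against that of another.

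Signal in the heart channel was well above background on all 16 arrays for 4 of the 18 probes, the tested ones of Crhr2, Adra1b, Agtr1a and Ednra. It was so on no array for 4 probes, 1 of Adra1a and 3 of Ednra, and no probe was saturated. The only Chrm2 probe was well above background on 1 of 16 arrays, a wild type one, so Chrm2 was not tested and no level is given for it. The tested Adra1a probe reached that mark on 0 double null, 0 MuRF1 null MuRF2 het, 1 MuRF1 het MuRF2 null and 3 wild type arrays. The tested Adrb1 and Grk5 probes each reached it on 3 double null, 3 MuRF1 null MuRF2 het, 4 MuRF1 het MuRF2 null and 4 wild type arrays. For Ednrb the counts were 2, 1, 4 and 4 arrays in the same order, and 1, 2, 4 and 4 for its second probe. The second Agtr1a probe was well above background on 0 double null and 0 MuRF1 null MuRF2 het arrays, against 4 MuRF1 het MuRF2 null and 4 wild type arrays.

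The arrays themselves differed in brightness, and this touches each of these counts. Cy5 signal was well above background for 6037 to 14503 probes on double null, 6402 to 15067 on MuRF1 null MuRF2 het, 16129 to 17391 on MuRF1 het MuRF2 null and 15171 to 16664 on wild type arrays. The dimmest were double null replicate 2 and MuRF1 null MuRF2 het replicate 1. Slides 1 and 3 each held 2 double null and 2 wild type arrays, whereas the MuRF1 null MuRF2 het arrays filled slide 2 and the MuRF1 het MuRF2 null arrays filled slide 4, where genotype and slide cannot be told apart. Trim63, the gene of MuRF1, followed the labelled MuRF1 copies: its log2 difference from wild type was -3.36 for double null hearts, -3.27 with 1 copy of MuRF2 left and -0.69 with 1 copy of MuRF1 left. Trim55, the gene of MuRF2, was not lower in any mutant group, with differences of 0.37, 0.70 and 0.44, none of which passed. No source used here says whether its probe lies in the deleted part, so the MuRF2 genotypes rest on the labels.

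Levels below are log2 ratios of heart over pup reference, 0 meaning equal signal and 1 a doubling. The first kind, called the loess ratio, was computed from spot intensities with a background correction that adds a constant of 50, which draws the ratios of dim spots towards 0. The second, called the Feature Extraction ratio, is the one deposited in the array files, which adds no such constant but replaces the signal of spots too close to background by a stand-in value. Tests used limma over all 16 arrays, with p adjusted by the Benjamini-Hochberg method over all genes tested, and the words rose and fell are kept for genes with an adjusted p under 0.05. Errors of differences are standard errors, errors of means are standard deviations (n = 4), and intervals are 95% intervals.

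**Figure D1:**
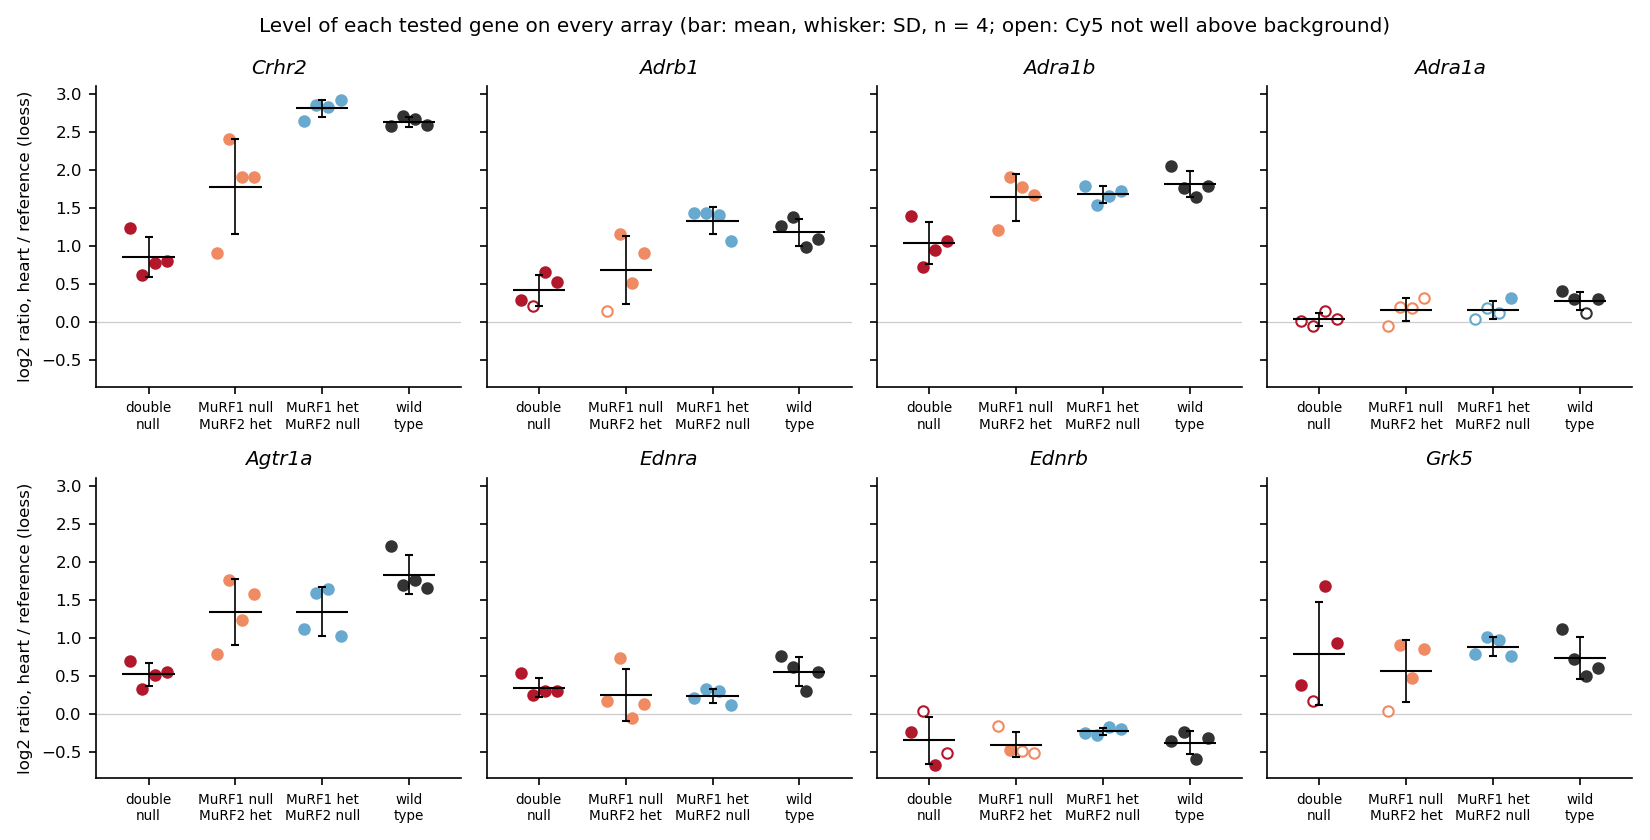
Loess log2 ratio of heart over pup reference for the 8 tested genes, 1 point per array and 4 arrays per genotype, with the mean and SD. Open points mark arrays where the Cy5 signal was not well above background. Crhr2, Adrb1, Adra1b and Agtr1a lay lower on all 4 double null than on all 4 wild type arrays.

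In double null hearts 4 of the 8 tested genes fell against wild type and 0 rose, where 12.0% of all genes tested fell, 10.2% rose and 22.2% changed. In each of the 4 the groups did not overlap, as was the case with lower values for 12.9% of all genes. The genes that fell were Crhr2, Agtr1a, Adra1b and Adrb1, receptors for urocortins, angiotensin II and the catecholamines. The balance over all genes depended on the scaling: 1253 rose and 1484 fell by the loess ratio, 720 rose and 1445 fell by the Feature Extraction ratio with an all-gene median of -0.18, and 19 rose and 6867 fell where arrays were only centred on their median, with an all-gene median of -0.49. The median loess difference over the 8 tested genes was -0.50, against 0.01 over all genes. The endothelin receptors and Grk5 did not pass.

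Crhr2 was the gene with the lowest difference among the tested members. Its loess ratio was 1.24, 0.63, 0.79 and 0.80 on the double null arrays, against 2.58, 2.71, 2.68 and 2.59 on the wild type arrays. The double null values were all far below the wild type ones, which lay close together. The difference was -1.78 ± 0.22, which is 3.42-fold lower, with an adjusted p of 0.000176 (limma). By the Feature Extraction ratio the double null arrays gave 3.42, 3.30, 2.34 and 2.65, against 4.52, 4.49, 4.22 and 4.59 for wild type. The groups did not overlap by this ratio either, and the difference was -1.53 ± 0.21 with an adjusted p of 0.000803 (limma).

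Agtr1a encodes the main angiotensin II receptor of rodent heart and vessels. Its loess ratio was 0.69, 0.33, 0.51 and 0.55 on double null arrays, against 2.21, 1.70, 1.76 and 1.65 on wild type arrays. The groups were far apart, and the difference was -1.31 ± 0.20, 2.48-fold lower, with an adjusted p of 0.00056 (limma). The Feature Extraction ratio gave the same difference, -1.31, with an adjusted p of 0.00133 (limma). The second Agtr1a probe, the one shown whole above, read between -0.05 and -0.0018 in double null hearts, against 0.25, 0.26, 0.42 and 0.20 in wild type hearts. Since none of the 4 double null arrays measured this probe well above background, only a bound holds: its normalised Cy5 signal was at least 1.11-fold lower in double null hearts (adjusted p = 0.033, limma, where 20.8% of all probes changed). The probe passed the filter on dim signal only through the groups where it is high, so its test lends the first probe no support. That bound compares the wild type mean with the lowest signal among probes well above background on each double null array, or the probe's own where it was higher, and without dye swaps it is open to dye bias. Bounds of this kind use the mean of all arrays in the brighter group, also those not well above background. They carry no error and describe means only.

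Adra1b had loess ratios of 1.40, 0.73, 0.96 and 1.07 in double null hearts, against 2.05, 1.76, 1.65 and 1.80 in wild type hearts. No double null array reached the lowest wild type one, and the difference was -0.78 ± 0.15, 1.71-fold lower, with an adjusted p of 0.00305 (limma). The Feature Extraction ratio read 2.14, 2.03, 1.53 and 1.83 in double null hearts, against 2.43, 2.12, 1.94 and 2.17 in wild type hearts. By this ratio the groups overlapped, and the difference of -0.28 ± 0.16 did not pass (adjusted p = 0.211, limma). The call for Adra1b therefore held by the loess ratio and not by the deposited one.

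Adrb1, the main beta adrenergic receptor of heart muscle, had loess ratios of 0.29, 0.21, 0.66 and 0.52 in double null hearts. Wild type hearts had 1.26, 1.39, 0.99 and 1.10. Every double null value was below every wild type one, and the difference was -0.76 ± 0.18, 1.70-fold lower, with an adjusted p of 0.00819 (limma). The Feature Extraction ratio was 1.06, -0.05, 1.84 and 1.60 in double null hearts, against 2.55, 2.94, 2.23 and 2.31 in wild type hearts. The groups again did not overlap, but double null replicate 2 lay far from the rest and the difference of -1.40 ± 0.53 did not pass (adjusted p = 0.0798, limma). Without the 2 dimmest arrays, a choice made after the data were seen, the Feature Extraction difference was -1.01 with an adjusted p of 0.00549 (limma). With the mean Cy5 brightness of each array as a covariate, the loess difference was -0.35 and did not pass (adjusted p = 0.137, limma). The second Adrb1 probe was well above background on 0 double null and 2 wild type arrays. Its bound was 1.05-fold lower in double null hearts, but it did not pass (adjusted p = 0.147, limma). Its loess interval of -0.34 to 0.0059 included 0, so no minimum change is shown.

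**Figure D2:**
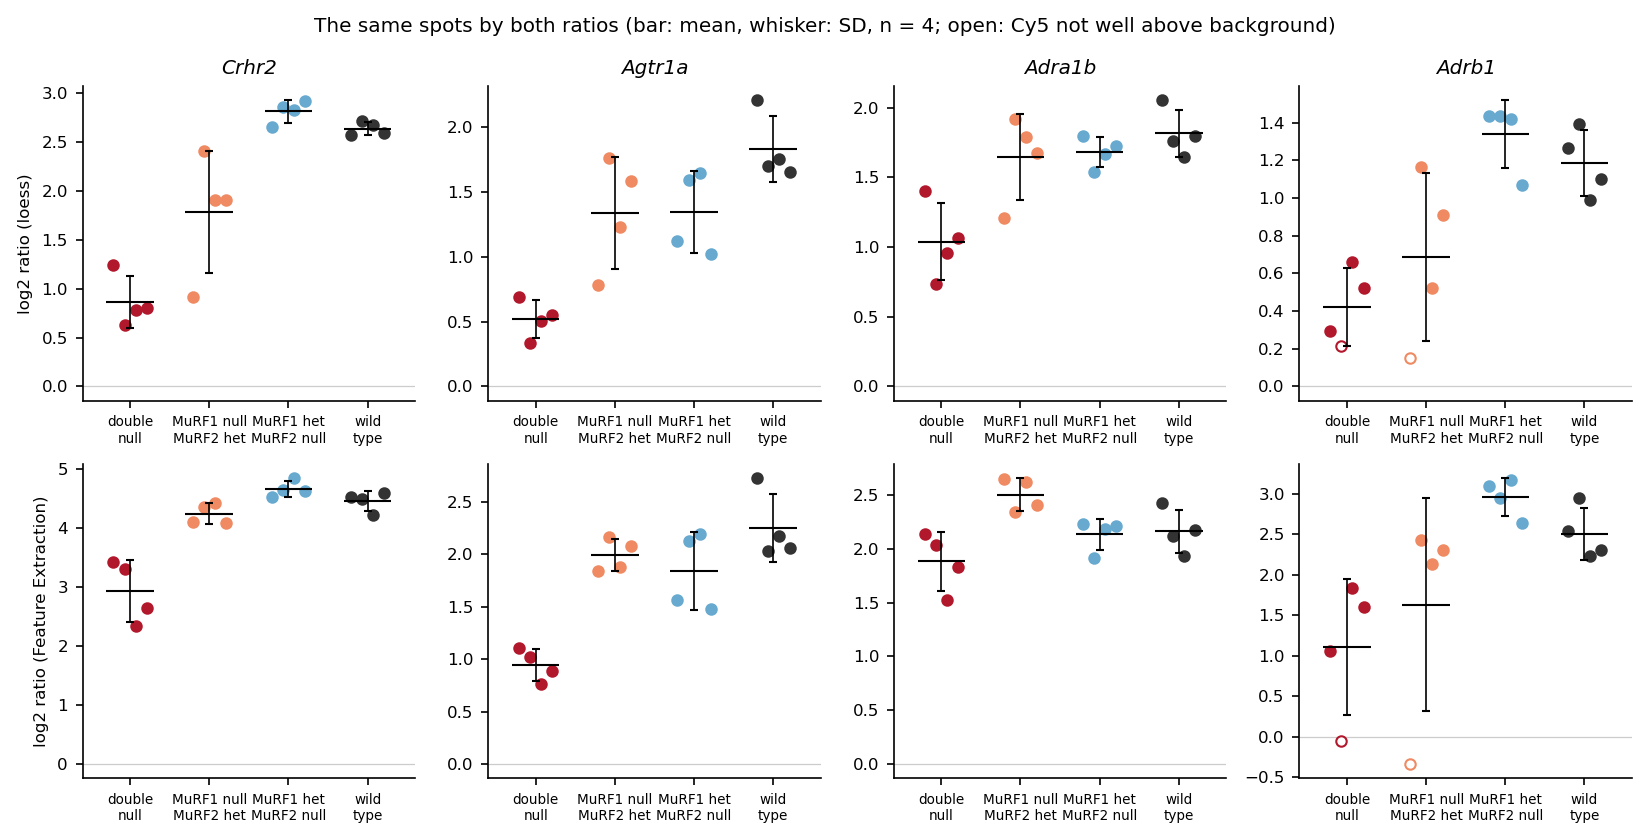
The same spots by the loess ratio (top) and the Feature Extraction ratio (bottom) for Crhr2, Agtr1a, Adra1b and Adrb1, in log2 of heart over pup reference, 1 point per array with the mean and SD of the 4 arrays. Vertical scales differ between panels. By both ratios the double null arrays lay below the wild type arrays for Crhr2, Agtr1a and Adrb1, while for Adra1b the groups overlapped by the Feature Extraction ratio.

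The other alpha receptor gene and both endothelin receptor genes did not pass by the loess ratio. Adra1a had loess ratios of 0.02, -0.05, 0.15 and 0.05 in double null hearts, against 0.41, 0.30, 0.12 and 0.31 in wild type hearts, so that the groups overlapped (adjusted p = 0.0667, limma). Its Feature Extraction ratio read -0.91, -0.47, 1.44 and -0.56 in double null and 2.72, 1.58, 1.78 and 2.20 in wild type hearts without overlap (adjusted p = 0.0376, limma, where 17.6% of all genes changed by this ratio). None of those double null values came from a spot well above background, and the probe passed the filter only through 3 wild type arrays and 1 MuRF1 het MuRF2 null array. Its test therefore supports no size of change, and only a bound on the means is given: the mean normalised Cy5 signal had a bound of 1.05-fold lower in double null hearts. The loess difference did not pass, so no minimum change is shown.

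Ednra, the endothelin receptor of muscle cells, had loess ratios of 0.53, 0.24, 0.30 and 0.31 in double null hearts and 0.76, 0.62, 0.30 and 0.55 in wild type hearts. The difference was -0.21 ± 0.14 (adjusted p = 0.284, limma), with an interval of -0.51 to 0.09. Ednrb, which endothelial cells carry, had loess ratios of -0.24, 0.03, -0.67 and -0.52 in double null and -0.36, -0.24, -0.60 and -0.31 in wild type hearts. The loess difference was 0.03 ± 0.13 (adjusted p = 0.898, limma), with an interval of -0.25 to 0.31. Its sign depended on the processing: the Feature Extraction difference was -0.66 (adjusted p = 0.188, limma), and with the 2 dimmest arrays left out it was -0.93 (adjusted p = 0.0493, limma).

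Grk5 did not pass over the whole group and had opposite differences on the 2 slides that held both genotypes. Its tested probe had loess ratios of 0.39, 0.17, 1.68 and 0.93 in double null hearts, against 1.12, 0.72, 0.50 and 0.60 in wild type hearts. Replicates 1 and 2 of each group were on slide 1, replicates 3 and 4 on slide 3. Double null arrays were below wild type on slide 1, by 0.65 on average (-0.65), and above it on slide 3, by 0.76. Over both slides the difference was 0.06 ± 0.26 (adjusted p = 0.894, limma), with an interval of -0.50 to 0.62. The second Grk5 probe, 189 bases away, had the same order: 0.05, -0.13, 1.39 and 0.89 in double null hearts against 0.78, 0.72, 0.51 and 0.53 in wild type hearts. The 2 probes share their RNA, so they are not separate evidence about the hearts. The difference between the slides was 1.41 with an interval of 0.59 to 2.22 and an unadjusted p of 0.00243, but an adjusted p of 0.674 over 12327 genes (limma). Of those genes 1 passed and 758 had an unadjusted p under 0.05. Leaving out double null replicate 3 made the overall difference -0.24, and leaving out replicate 2 made it 0.27, neither of which passed. With array weights it was 0.25 and passed (adjusted p = 0.0355, limma). Most of all genes tested also passed in that setting, so the call is not read as a result about Grk5.

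**Figure D3:**
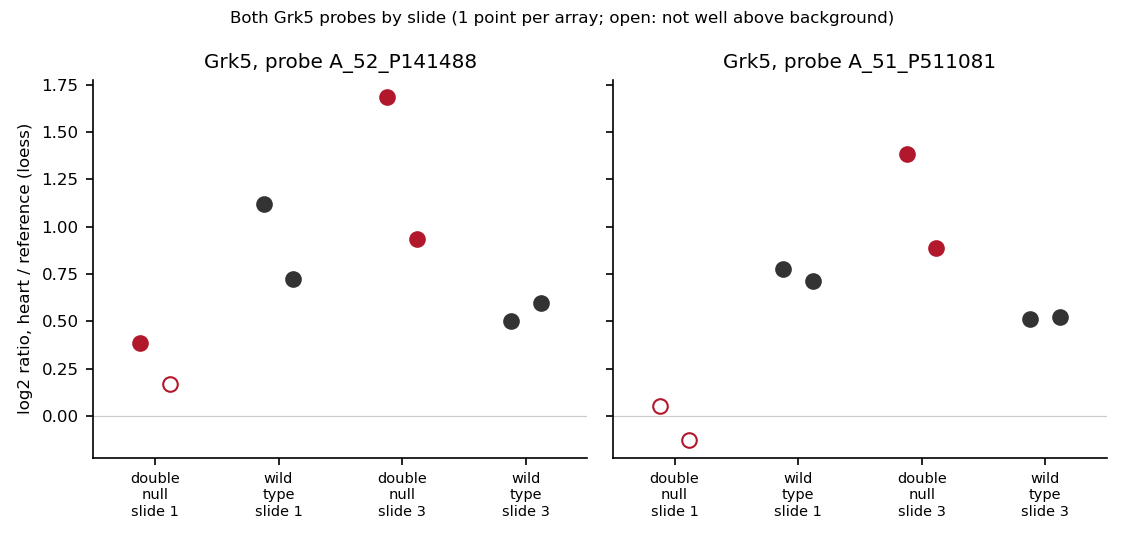
Loess log2 ratio of heart over pup reference for both Grk5 probes on the 2 slides that held double null and wild type arrays, 1 point per array. Open points mark Cy5 signal not well above background. On slide 1 both double null arrays lay below both wild type arrays, and on slide 3 above them.

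The 4 genes that fell over all arrays were lower in double null hearts on each of the 2 slides. Within slide 1 the double null minus wild type differences were -1.71 for Crhr2, -1.44 for Agtr1a, -0.84 for Adra1b and -1.07 for Adrb1. Within slide 3 they were -1.84, -1.18, -0.71 and -0.45 in the same order. With 2 arrays a group, slide 1 alone passed 0 of 12330 genes (limma), of which 2627 had an unadjusted p under 0.05, 5 of the 8 receptor and kinase genes among them. The test of the difference between slides did not pass for any of the 4 genes (adjusted p between 0.769 and 0.939, limma). Leaving out any 1 of the 16 arrays kept all 4 calls.

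In MuRF1 null MuRF2 het hearts 0 of the 8 tested genes passed against wild type, where 1.03% of all genes changed and 0.714% fell, and all 8 differences were below 0. Their median was -0.24, against 0.0029 over all genes. With arrays only centred on their median, 13 genes in all rose and 7361 fell, against 39 and 88 by the loess ratio. At an unadjusted p under 0.05, 4 of the 8 were lower, Crhr2, Adrb1, Agtr1a and Ednra, where 11% of all genes were. Crhr2 had loess ratios of 0.91, 2.41, 1.91 and 1.91, all below the 4 wild type values given above, where 6.31% of all genes lay lower without overlap. Its difference was -0.85 ± 0.22 (adjusted p = 0.0652, limma), with an interval of -1.32 to -0.39. The same arrays read 4.09, 4.36, 4.42 and 4.09 by the Feature Extraction ratio and overlapped wild type, with a difference of -0.22 (adjusted p = 0.577, limma). The lowest loess value came from replicate 1, the dimmest array of this group, and without it the loess difference was -0.56.

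Agtr1a had loess ratios of 0.78, 1.76, 1.23 and 1.58 in MuRF1 null MuRF2 het hearts, and its difference from wild type was -0.49 (adjusted p = 0.164, limma). Adrb1 had 0.15, 1.16, 0.52 and 0.91, and differed by -0.50 (adjusted p = 0.134, limma). Adra1b had 1.21, 1.92, 1.79 and 1.68, close to the wild type values, and differed by -0.17 (adjusted p = 0.514, limma). Ednra, the endothelin receptor of muscle cells, had 0.16, 0.73, -0.06 and 0.13 and differed by -0.31 (adjusted p = 0.201, limma). The differences were -0.17 for Grk5 and -0.03 for Ednrb. Adra1a, well above background on 0 arrays of this group, had a bound of 1.04-fold lower but did not pass (adjusted p = 0.436, limma). Its loess interval of -0.31 to 0.08 included 0, so no minimum change is shown. Of the 8 genes 0 passed by the Feature Extraction ratio, where 0.170% of all genes changed, and the difference of Adra1b was above 0 (0.34, adjusted p = 0.278, limma). The second probe of Agtr1a had a bound of 1.08-fold lower but did not pass (adjusted p = 0.139, limma), where 1.15% of all probes changed, so no minimum change is shown. One array decided the number of calls: without replicate 2 of this group, Crhr2, Adrb1, Agtr1a and Ednra passed, as did 12.1% of all genes. Without double null replicate 2, which also enters the estimate of spread, Crhr2 passed, as did 3.72% of all genes.

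In MuRF1 het MuRF2 null hearts 0 of the 8 genes passed against wild type, where 1.95% of all genes changed and 1.28% fell. By the loess ratio 83 genes in all rose and 158 fell, by the Feature Extraction ratio 4 and 19, and with median centring 19 and 2529. Their median difference was 0.01, and 2 of the 8, Agtr1a and Ednra, were lower at an unadjusted p under 0.05, where 9.21% of all genes were. Crhr2 had loess ratios of 2.66, 2.86, 2.83 and 2.92, with a difference of 0.18 ± 0.22 (adjusted p = 0.771, limma). Adrb1 had 1.43, 1.44, 1.42 and 1.07, with a difference of 0.15 ± 0.18 (adjusted p = 0.752, limma), and Adra1b had 1.80, 1.54, 1.67 and 1.73, with a difference of -0.13 ± 0.15. Agtr1a was the gene with the lowest difference here, with loess ratios of 1.12, 1.59, 1.65 and 1.02. All 4 were below the lowest wild type value, a pattern that 11.4% of all genes had, and the difference was -0.48 ± 0.20 (adjusted p = 0.228, limma). The second Agtr1a probe, measured on all 8 arrays of these groups, went the other way, with a difference of 0.09 (adjusted p = 0.716, limma, where 1.67% of all probes changed). The Feature Extraction values of the tested probe overlapped wild type, with a difference of -0.41, and 0 of the 8 genes passed by that ratio, where 0.187% of all genes changed. Ednra had loess ratios of 0.21, 0.33, 0.30 and 0.12 and differed by -0.32 ± 0.14 (adjusted p = 0.275, limma). The 2 Ednrb probes also had opposite signs, at 0.15 for the tested and -0.23 for the second probe (adjusted p = 0.646 and 0.195, limma), the second without overlap.

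**Figure D4:**
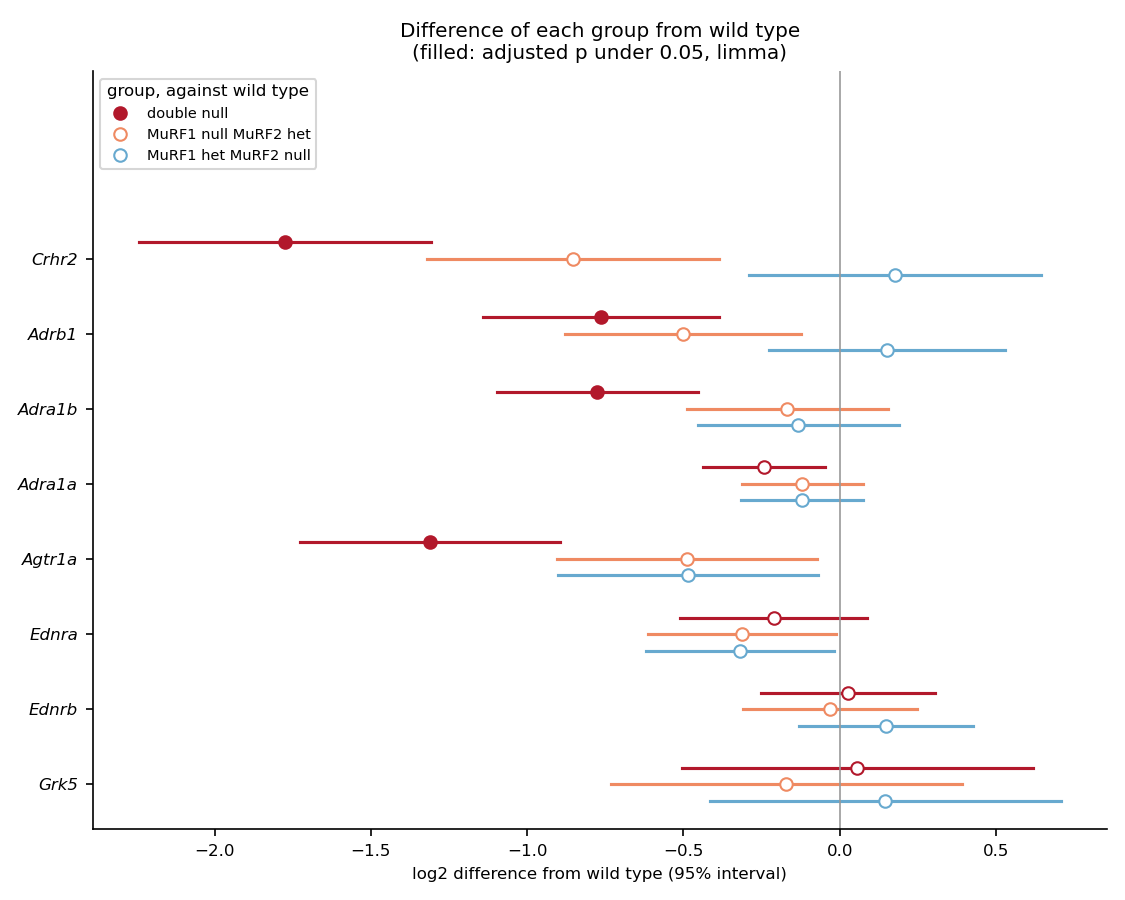
Loess log2 difference of each mutant group from wild type for the 8 tested genes, with 95% intervals. Filled points passed an adjusted p of 0.05 (limma over all genes tested), which 4 double null differences did, with Crhr2 at -1.78 and Agtr1a at -1.31.

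The mutant groups were then set against each other. Double null hearts were lower than MuRF1 het MuRF2 null hearts for the same 4 genes, where 12.7% of all genes fell and 26.3% changed, although these comparisons share the double null arrays and cannot count as separate evidence. Crhr2 differed by -1.95 ± 0.22, Adrb1 by -0.92 ± 0.18, Agtr1a by -0.83 ± 0.20 and Adra1b by -0.64 ± 0.15, with adjusted p of 8.88e-05, 0.00221, 0.00708 and 0.00686 (limma). The groups did not overlap for any of these 4 genes, as was so with lower values for 13.1% of all genes. Crhr2 (-1.73), Adrb1 (-1.85) and Agtr1a (-0.90) also passed by the Feature Extraction ratio, where 20.4% of all genes changed, and Adra1b (-0.25) did not. With brightness as a covariate Agtr1a was at -0.54 and just missed (adjusted p = 0.051, limma). Neither second probe of Agtr1a and Adrb1 was well above background on any double null array, and their signals were at least 1.20-fold and 1.08-fold lower there (adjusted p = 0.00724 and 0.0282, limma, where 25.4% of all probes changed), values that lend no support for the reason given above.

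Double null against MuRF1 null MuRF2 het hearts, a comparison of 0 with 1 copy of MuRF2 in the absence of MuRF1, gave 0 passing genes of 8 by the loess ratio, where 0.349% of all genes changed and 0.187% fell. At an unadjusted p under 0.05, 3 were lower, Crhr2, Agtr1a and Adra1b, where 5.22% of all genes were. The differences were -0.92 ± 0.22 for Crhr2 and -0.82 ± 0.20 for Agtr1a (both adjusted p = 0.0988, limma), and -0.61 ± 0.15 for Adra1b (adjusted p = 0.103, limma). The Agtr1a groups did not overlap, as was the case with lower values for 1.51% of all genes, and those of Crhr2 and Adra1b did. Crhr2 and Agtr1a did pass by the Feature Extraction ratio, with differences of -1.31 (adjusted p = 0.0177) and -1.05 (adjusted p = 0.0321, limma), where 0.706% of all genes changed. Leaving out double null replicate 1 gave 2 calls, where 0.933% of all genes changed, and leaving out MuRF1 null MuRF2 het replicate 1 gave 3, where 2.9% did. Without the 2 dimmest arrays 3 genes passed by the loess ratio, where 3.91% of all genes did, among them Crhr2 at -1.13 (adjusted p = 0.000425, limma). Adrb1 differed by -0.26 ± 0.18, with an interval of -0.64 to 0.11.

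MuRF1 null MuRF2 het hearts were lower than MuRF1 het MuRF2 null hearts for 2 of the 8 genes, Crhr2 and Adrb1, where 3.98% of all genes fell and 8.54% changed. Crhr2 differed by -1.03 ± 0.22 (adjusted p = 0.0142) and Adrb1 by -0.65 ± 0.18 (adjusted p = 0.0359, limma). The Crhr2 groups did not overlap, as was so with lower values for 8.23% of all genes, and those of Adrb1 did. The Adrb1 call was lost when MuRF1 null MuRF2 het replicate 1 or 3 or MuRF1 het MuRF2 null replicate 1, 2 or 3 was left out, with adjusted p of 0.0776 to 0.0989 (limma). Neither passed by the Feature Extraction ratio, at -0.42 and -1.33 (adjusted p = 0.243 and 0.165, limma). Agtr1a differed by -0.01, with an interval of -0.42 to 0.41. Its second probe was well above background on 0 arrays of MuRF1 null MuRF2 het hearts, against 4 arrays of MuRF1 het MuRF2 null hearts, so that only a bound holds, at least 1.17-fold lower (adjusted p = 0.0327, limma, where 8.61% of all probes changed). That probe passed the filter only through groups where it is high, so its test lends no support. Ednrb was the gene whose probes disagreed by the loess ratio: its tested probe differed by -0.18 and its second rose by 0.36 (adjusted p = 0.0204, limma), where 4.56% of all genes rose and 8.61% of all probes changed. For double null minus MuRF1 het MuRF2 null hearts the differences were 0.38 for the second (adjusted p = 0.00532, limma) and -0.12 for the tested probe. The second probe was well above background on only 1 double null and 2 MuRF1 null MuRF2 het arrays, against 4 MuRF1 het MuRF2 null arrays. Its mean loess ratios were -0.12 and -0.14 against -0.50, and the constant of 50 draws dim spots towards 0. Its mean Feature Extraction ratios showed no rise, at -1.06 and -1.14 against -1.04. Its loess differences therefore support no size of change.

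Set in order, the 4 loess group means of Crhr2 were 0.86 ± 0.26 for double null, 1.79 ± 0.63 for MuRF1 null MuRF2 het, 2.82 ± 0.11 for MuRF1 het MuRF2 null and 2.64 ± 0.07 for wild type hearts. The values of the last 2 overlapped, and their difference of 0.18 did not pass (adjusted p = 0.771, limma, with a spread shared by all 4 groups). By the Feature Extraction ratio the 4 means were 2.93, 4.24, 4.66 and 4.45. There the MuRF1 null MuRF2 het values overlapped those of wild type (difference -0.22, adjusted p = 0.577, limma). Unless named otherwise, the means in this paragraph are loess means. Adrb1 had the same order of means, 0.42 ± 0.21, 0.69 ± 0.44, 1.34 ± 0.18 and 1.19 ± 0.18, and its double null and MuRF1 null MuRF2 het values overlapped. For Agtr1a the means were 0.52 ± 0.15, 1.34 ± 0.43, 1.35 ± 0.32 and 1.83 ± 0.26, and the groups with 1 remaining copy did not differ from each other beyond their spread by this probe. The second Agtr1a probe had another order, with 0.37 ± 0.14 in MuRF1 het MuRF2 null and 0.28 ± 0.09 in wild type hearts and no measured level in the other groups. For Adra1b the double null loess mean was the lowest, at 1.04 ± 0.28, beside 1.65 ± 0.31, 1.68 ± 0.11 and 1.81 ± 0.17. The double null values overlapped those of MuRF1 null MuRF2 het hearts, and that difference did not pass (adjusted p = 0.103, limma). By the Feature Extraction ratio the double null values overlapped those of wild type (adjusted p = 0.211, limma). There the MuRF1 null MuRF2 het mean was the highest, but its difference from wild type did not pass (0.34, adjusted p = 0.278, limma).

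Markers of several cell types also differed between double null and wild type hearts, in different directions. Against wild type, 12.0% of all genes fell in double null hearts and 10.2% rose, which applies to each marker count below. Of 9 endothelial markers 8 fell in double null hearts, and the mean log2 ratio of the list was 0.12 to 0.36 on double null arrays, against 0.89 to 0.92 on wild type arrays. Flt1 and Kdr, receptors for the vascular growth factor VEGF, differed by -1.17 and -1.06. This list lay at 0.13 to 0.76 on MuRF1 null MuRF2 het arrays and at 0.70 to 1.04 on MuRF1 het MuRF2 null arrays. Of 10 smooth muscle and pericyte markers 5 fell and 2 rose, with list means of -0.48 to -0.26 in double null and -0.31 to -0.21 in wild type hearts. Of 7 heart muscle markers 2 fell, among them Myh6, the adult alpha myosin, at -1.52, and the list mean was 3.22 to 3.47 in double null against 3.70 to 3.86 in wild type hearts. Of 4 tested atrial markers 3 rose, with list means of -0.79 to 1.00 in double null against -1.78 to -1.41 in wild type hearts, and of 8 fibroblast markers 3 rose, with -2.55 to -1.11 against -2.73 to -2.50. The upper ends, 1.00 and -1.11, both came from double null replicate 2, the dimmest array. The remaining double null arrays lay at -0.79 to -0.47 for the atrial list and at -2.55 to -2.20 for the fibroblast list. All these list means are loess ratios. Of 5 macrophage markers 0 passed, of 5 adipocyte markers 1 rose, and of 3 tested Schwann cell and neuron markers 1 rose. Of 8 melanocyte markers 3 were tested, of which Dct rose by 1.84 and Mitf fell by 1.00 on the log2 scale, and the list mean was 0.26 to 0.56 in double null against -0.03 to 0.23 in wild type hearts. Tyr and Tyrp1 were well above background on 0 arrays. In RNA of whole hearts, fewer cells of a type and less RNA per cell cannot be told apart, and the part of these shifts in the receptor differences was not tested.

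The ligands of these receptors were seldom measured in the heart. Ucn, Ucn2 and Ucn3, the urocortins that Crhr2 binds, were well above background on 0 of 16 arrays. Agt, the precursor of angiotensin II, differed by 0.21 in double null hearts (adjusted p = 0.642, limma) and Edn1, an endothelin, by -0.20 (adjusted p = 0.174, limma). Of 20 listed ligand and ligand-processing genes 7 were tested, with a median difference of 0.21. Of these 2 rose and 1 fell, where 10.2% of all genes rose and 12.0% fell. Maoa, an enzyme that breaks down catecholamines, rose by 0.87 (adjusted p = 0.000416, limma). Ece1, which makes active endothelin, fell by 0.72 on the log2 scale (adjusted p = 0.00699, limma). Ece1 passed again by the Feature Extraction ratio (-0.78, adjusted p = 0.0124, limma), and Maoa did not (1.05, adjusted p = 0.216, limma).

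Of 18 listed other receptors for the same ligands 4 were tested, and 2 rose, with a median of 0.18, where 10.2% of all genes rose. The direction depended on the scaling: the Feature Extraction median was -0.19 with 1 gene that rose, and median centring gave a median of -0.37 with 0 that rose and 2 that fell. Agtr2, the second angiotensin II receptor, rose by 0.74 ± 0.18 (adjusted p = 0.0117, limma), where Agtr1a fell, and by the Feature Extraction ratio by 1.10 (adjusted p = 0.0184, limma). Adra2a, an alpha receptor known to restrain noradrenaline release, rose by 0.40 ± 0.13 (adjusted p = 0.0409, limma), but its Feature Extraction difference was -0.07 and did not pass. Adrb3, a beta receptor, and Agtr1b were well above background on 0 arrays.

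Downstream of the receptors, genes of cyclic AMP signalling were more often lower than higher in double null hearts. The list held enzymes that make or break down cyclic AMP, and also kinase subunits, anchoring proteins and targets that act after it. Of 24 tested genes of this arm 7 fell and 0 rose, with a median of -0.24 and 18 of 24 below 0, where 12.0% of all genes fell. With array brightness as a covariate 4 fell and 1 rose, with a median of -0.11 and 15 below 0. Adcy6 and Adcy9, which make cyclic AMP, fell by 1.00 and 0.95 on the log2 scale (adjusted p = 0.000254 and 0.00177, limma). Pde4a and Pde3a, phosphodiesterases that break it down, fell by 1.13 and 0.77 (adjusted p = 0.00627 and 0.00112, limma). The genes that fell thus include both makers and breakers of cyclic AMP. The Feature Extraction ratio gave 7 genes that fell, among them Adcy6 at -1.12 and Pde4a at -1.37, whereas Adcy9 and Pde3a, at -1.36 and -1.37, did not pass, and the median was -0.49 where that of all genes was -0.18. In MuRF1 null MuRF2 het hearts Pde3a and Adcy9 fell against wild type, by 0.67 and 0.76 on the log2 scale (adjusted p = 0.03 and 0.0454, limma), but not by the Feature Extraction ratio. In MuRF1 het MuRF2 null hearts 0 of the 24 passed. Without MuRF1 null MuRF2 het replicate 1, 10 fell and 3 rose in double null hearts, where 3689 genes in all changed, against 2737 with all arrays. Without double null replicate 3, 9 fell and 2 rose. With 1 array left out, calls over all genes ran from 1554 to 3689.

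**Figure D5:**
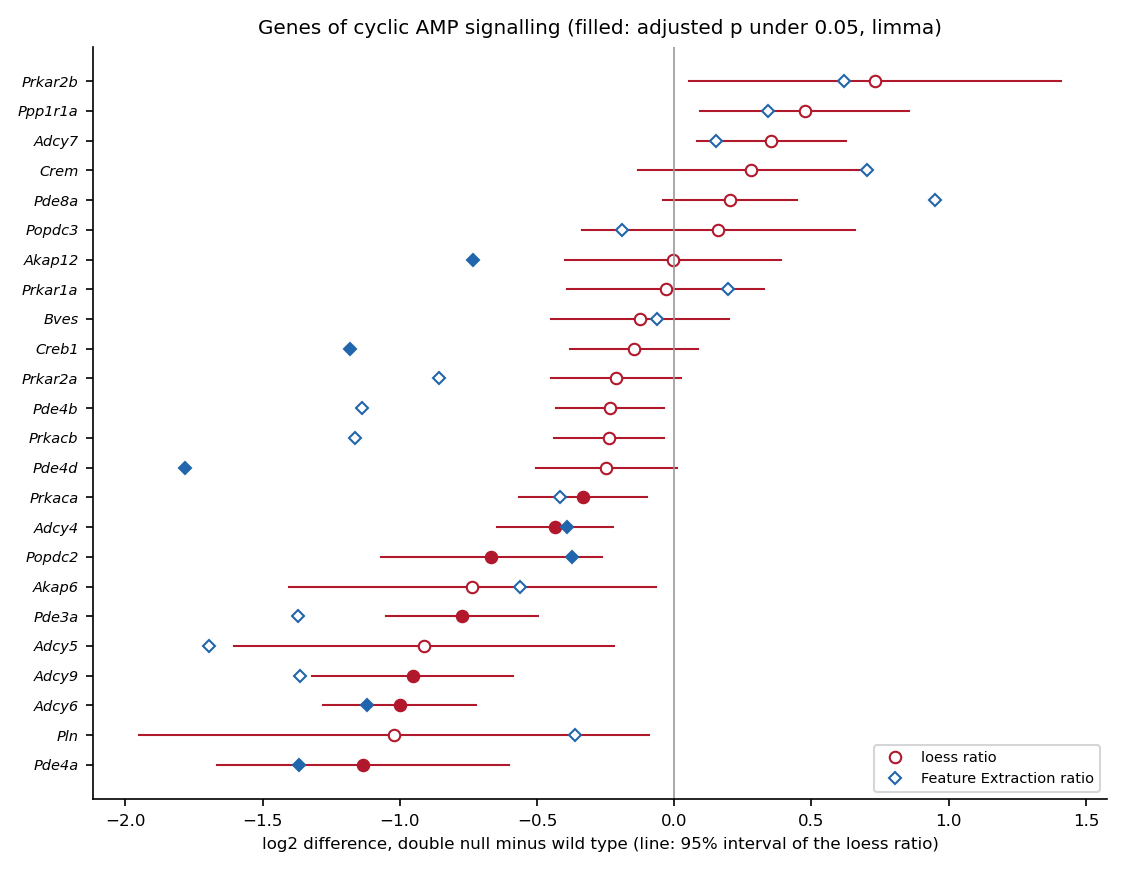
Log2 difference between double null and wild type hearts for the 24 tested genes of cyclic AMP signalling, by the loess ratio (circles, with 95% intervals) and by the Feature Extraction ratio (diamonds). Filled symbols passed an adjusted p of 0.05 (limma). By the loess ratio 18 of 24 lie below 0 and 7 passed, all of them lower.

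Genes of the other arms were counted in the same way, where 12.0% of all genes fell and 10.2% rose. Small counts near those shares are not read as a result about an arm. Of 18 tested genes of the phospholipase C arm, through which Agtr1a, Adra1b and Ednra act, 3 fell and 1 rose, with a median of -0.07 by the loess ratio and -0.68 by the Feature Extraction ratio, where 15 of 18 were lower. Nfatc1, a calcium-controlled transcription factor, fell by 0.37 on the log2 scale, and Prkce and Prkca, protein kinases C, by 0.33 and 0.26. Prkcb, another kinase of that family, rose by 0.41 (adjusted p = 0.0195, limma). Of 14 G protein genes 1 fell, Gnb2, a beta subunit, by 0.34. Of 11 receptor kinase, arrestin and RGS genes 2 fell, with a median of -0.06. Rgs6, which shortens signalling of the muscarinic receptor in the heart, fell by 0.45 in double null hearts (adjusted p = 0.00274) and by 0.45 in MuRF1 null MuRF2 het hearts (adjusted p = 0.03, limma). Rgs5, which is also a pericyte marker, fell by 0.78 (adjusted p = 0.0343, limma). Although Chrm2 was not measured, Kcnj3, a subunit of the acetylcholine-activated potassium channel on which it acts, was, and fell by 0.73 on the log2 scale (adjusted p = 0.0123, limma). The calls of Prkcb, Prkca, Rgs5 and Kcnj3 did not hold by the Feature Extraction ratio, with adjusted p of 0.541, 0.0606, 0.0516 and 0.0516 (limma). Kcnj5, Hcn2 and Hcn4 were well above background on 0 arrays.

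For each receptor gene that fell, the 3 genes with the most similar values over the 16 arrays were found among 10899 named genes, as the smallest root mean square distance after each gene's own wild type mean was subtracted. For Crhr2 these were Ccdc141, Kcnq1, a potassium channel of the heart, and Dglucy, at distances of 0.29, 0.30 and 0.32 on the log2 scale. For Agtr1a they were Klhl30, Rap1gap2 and Cited4, at 0.26, 0.27 and 0.27. For Adra1b they were Tbrg4, Hhatl and Rxrg, at 0.15, 0.16 and 0.16. For Adrb1 they included Esrrb and Tbx5, a transcription factor of the developing heart, at 0.15 and 0.16. Against wild type, Tbx5 differed by -0.94 for double null, -0.51 for MuRF1 null MuRF2 het and 0.05 for MuRF1 het MuRF2 null hearts, beside -0.76, -0.50 and 0.15 for Adrb1. These likenesses are descriptions of 16 arrays whose brightness differed between groups.

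The 250 bases before the start sites of 3 of the genes that fell by the loess ratio are shown. Agtr1a, which also fell, matched no entry and is left out for that reason. The bases come from RefSeq on the GRCm38.p6 build, where 7 of the 9 genes matched an entry, and read 5′ to 3′ on the gene's own strand. Capitals mark matches to any of 8 motifs, searched on both strands: the TATA box TATAAA, the CCAAT box CCAAT, GATA as AGATAA, MCAT as CATTCC, the E-box CACGTG, the cyclic AMP response element TGACGTCA, MEF2 and the CArG box.
Crhr2, chr6:55133017-55133266, minus strand: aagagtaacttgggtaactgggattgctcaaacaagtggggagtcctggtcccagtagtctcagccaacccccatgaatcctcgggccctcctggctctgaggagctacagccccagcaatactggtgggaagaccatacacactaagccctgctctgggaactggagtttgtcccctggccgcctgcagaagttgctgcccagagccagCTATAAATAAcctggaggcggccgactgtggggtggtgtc
Adrb1, chr19:56721867-56722116, plus strand: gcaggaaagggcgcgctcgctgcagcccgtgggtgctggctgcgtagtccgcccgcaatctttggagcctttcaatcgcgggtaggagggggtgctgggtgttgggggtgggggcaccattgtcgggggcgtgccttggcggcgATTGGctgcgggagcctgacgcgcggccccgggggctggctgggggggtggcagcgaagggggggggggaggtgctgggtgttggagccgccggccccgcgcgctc
Adra1b, first start, chr11:43901238-43901487, minus strand: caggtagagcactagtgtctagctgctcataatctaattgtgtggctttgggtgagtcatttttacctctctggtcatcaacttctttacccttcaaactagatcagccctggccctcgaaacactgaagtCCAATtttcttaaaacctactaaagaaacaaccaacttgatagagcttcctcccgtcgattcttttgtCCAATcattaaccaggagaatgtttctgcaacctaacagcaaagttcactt
Adra1b, second start, chr11:43836490-43836739, minus strand: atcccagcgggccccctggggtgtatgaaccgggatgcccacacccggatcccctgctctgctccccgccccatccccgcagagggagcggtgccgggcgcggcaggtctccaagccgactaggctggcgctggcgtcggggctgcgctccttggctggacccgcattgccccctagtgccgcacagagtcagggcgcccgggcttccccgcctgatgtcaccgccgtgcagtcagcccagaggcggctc
The Crhr2 window held 1 TATA box 39 bases before the start, which overlaps a MEF2 match 40 bases before it. Of 32851 windows of this length 12.4% held TATAAA and 2.92% a MEF2 match. The Adrb1 window held 1 CCAAT box on the other strand, 106 bases before the start, and the first Adra1b window held 2, while the second held none of the 8 motifs. CCAAT was present in 33.8% of all windows, AGATAA in 9.99%, CATTCC in 12.6%, CACGTG in 6.02%, TGACGTCA in 1.55% and the CArG box in 1.47%. The windows also differed in base composition, with 57.6% G and C for Crhr2, 74% for Adrb1 and 41.6% and 72.8% for the 2 starts of Adra1b. No motif was shared by the 3 genes.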

How the data were processed

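The arrays measured heart RNA (Cy5, per the labels) against pooled pup RNA (Cy3), from 50 ng of total RNA each. The labelling protocol names only Cy3-CTP, and the channel entries were followed. The deposited scanner files hold spot intensity and local background per colour, and a log10 ratio that the authors obtained with Agilent Feature Extraction (9.1.3.1 on 12 arrays, 9.5.3.1 on the 4 MuRF1 het MuRF2 null arrays), per the file headers. Values of the deposited series matrix are on a log2 scale. Of these, 71.4% lay within 0.01 of the Feature Extraction log2 ratio minus each probe's median over the arrays, and its columns have medians of -0.03 to 0.02. No source used here says how the authors made it.

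Intensities were processed anew with limma 3.58.1 in R 4.3.3: normexp background correction (offset 50), loess within arrays with control and irregular spots given no weight, and averaging of spots per probe. Of 41174 probes, 16810 had Cy5 well above background on at least 4 of 16 arrays. The probe with the highest mean log2 Cy5 stood for a gene. The 6 comparisons came from 1 fit with a mean for each group, which was tested on simulated data. Symbols came from RefSeq (GRCm38.p6).

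The receptor genes, the pathway and marker lists and the tests were chosen with earlier results of these data known. Named pathway genes are at most the 4 with the smallest p per list and comparison among those that passed, and the receptors' own ligands. A few genes that this rule names are not reported here. Alternatives covered ratio, centring, scaling, filters, probe choice, brightness, array weights, replicate and slide blocks, single slides and left-out arrays. Replicate numbers were not used to pair samples, since in no comparison did all 4 same-numbered pairs deviate together: correlations of their deviations ran from -0.22 to 0.28 between double null and wild type arrays and from -0.13 to 0.33, with 3 of 4 over 0.1, between MuRF1 null MuRF2 het and wild type arrays, and the widest range, between double null and MuRF1 null MuRF2 het arrays, was -0.61 to 0.36.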

Additional observations from a re-analysis of the deposited data

Results flagged for a closer look

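Among 48 sets of 4 arrays (12 probes in 4 groups), 2 had 1 array far from the other 3, and chance alone gives such a flag in about 1 of 20 sets. For the tested Adrb1 probe, MuRF1 het MuRF2 null replicate 4 had a loess log2 ratio of 1.07, while the other 3 arrays of that group lay between 1.42 and 1.44. For the tested Ednrb probe, MuRF1 null MuRF2 het replicate 1, the dimmest array of its group, had -0.16, while the other 3 lay between -0.51 and -0.47.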

How the results depend on the processing

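The 4 double null genes that fell against wild type stayed called in all 16 fits that left out 1 array, where 4 to 5 genes were called. Array weights gave 8 calls, in a setting where most of all genes were called, and slide 1 alone, with 2 arrays a group, gave 0. By the Feature Extraction ratio Crhr2, Agtr1a and Adra1a were called, where 17.6% of all genes changed. Adra1b and Adrb1 were not (adjusted p = 0.211 and 0.0798, limma), and with brightness as a covariate Adrb1 was not. Calls over all genes varied widely between settings, as given at the end, so the counts below are not read as results about these genes. For MuRF1 null MuRF2 het against wild type the count was 6 with median centring, where 13 genes in all rose and 7361 fell. It was 3 with array weights, 1 with the Cy5 channel alone or without the 2 dimmest arrays, and 0 to 4 with 1 array left out. For MuRF1 het MuRF2 null against wild type it was 1 with the Cy5 channel alone, 2 with array weights and 0 with any array left out. For double null against MuRF1 null MuRF2 het it was 2 with the Feature Extraction ratio, the series matrix or the Feature Extraction ratio without the 2 dimmest arrays. It was 3 with scaling, the Cy5 channel alone, brightness, array weights or the 2 dimmest arrays left out, and 0 to 3 with 1 array left out. For MuRF1 null MuRF2 het against MuRF1 het MuRF2 null it was 1 with the Feature Extraction ratio, the series matrix, no filter or the replicate block, 0 with the Cy5 channel alone or the Feature Extraction ratio without the 2 dimmest arrays, 4 with all probes, and 1 to 2 with 1 array left out. In double null against wild type Ednrb turned negative under array weights (-0.18), median centring (-0.44) and the Feature Extraction ratio without the 2 dimmest arrays (-0.93). With its second probe it turned to 0.38 for double null and 0.36 for MuRF1 null MuRF2 het, each against MuRF1 het MuRF2 null.

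Counts of the pathway lists in double null against wild type moved as follows. Slide 1 alone gave 0 in every list. Median centring gave 10 receptor kinase, arrestin and RGS genes, 10 G protein, 16 cyclic AMP and 13 phospholipase C genes, but it also moved the median of all genes by -0.49. Array weights gave 7, 7, 19 and 14 in the same lists, and leaving out the 2 dimmest arrays gave 4, 4, 11 and 7. With the Feature Extraction ratio and those arrays out, the counts were 2 G protein, 13 cyclic AMP and 10 phospholipase C genes. G proteins numbered 2 with the Feature Extraction ratio, the series matrix, the Cy5 channel alone, brightness, the second probe, the replicate block or slide 3, and 3 with a slide block. Other receptors numbered 1 with the Feature Extraction ratio, the series matrix, no filter or slide 3, and 0 with the Cy5 channel alone, brightness or a filter of 12 arrays. Muscarinic effectors numbered 1 with the Feature Extraction ratio, the series matrix or slide 3, and 0 with the Cy5 channel alone, brightness or the filter of 12 arrays, which left 2 phospholipase C genes. With 1 array left out, the counts were 3 to 4 ligand genes, 1 to 2 other receptors, 1 to 4 kinases, 0 to 4 G proteins, 5 to 13 cyclic AMP, 2 to 5 phospholipase C and 1 to 2 muscarinic genes. The replicate block changed no other call count of the receptor genes. The causes were not tested.

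Over all genes, double null against wild type gave 2737 calls, 6886 under median centring, 8118 under array weights and 1552 with brightness as a covariate. MuRF1 null MuRF2 het against wild type gave 127 calls, and from 21 (Feature Extraction ratio) to 7374 (median centring). MuRF1 het MuRF2 null against wild type gave 241, and from 23 (Feature Extraction ratio) to 3080 (array weights). Double null against MuRF1 null MuRF2 het gave 43 calls, and from 0 (median centring) to 2873 (array weights). Double null against MuRF1 het MuRF2 null gave 3242, and from 870 (median centring) to 8162 (array weights). MuRF1 null MuRF2 het against MuRF1 het MuRF2 null gave 1053, and from 273 (Feature Extraction ratio) to 3152 (array weights). Dim signal limits Adra1a, Chrm2 and the second Agtr1a and Adrb1 probes to bounds. The number of arrays, 4 a group, limits the precision.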
